A study of Mus musculus with 4 samples.

Results

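Layer 5 extratelencephalic (ET) neurons are the large projection neurons of motor cortex whose axons leave the forebrain hemisphere for the thalamus, brainstem and spinal cord. Here they were taken from single-nucleus RNA of C57BL/6N mouse primary motor cortex. A nucleus was taken as ET when it passed a gate for excitatory neurons and held at least 1 unique molecular identifier (UMI, 1 counted RNA molecule) of at least 5 of 9 marker genes. The 9 were Shoc1, L3mbtl4, Chst8, Tcerg1l, Tmem163, Gm2164, Gm13211, Gm42705 and Tafa1. Nuclei with more than 3 UMIs of Il1rapl2 and Deptor together, or more than 1 UMI of Cpa6, were left out. The excitatory gate asked for 500 or more genes, under 5% mitochondrial UMIs, and 2 or more UMIs of Slc17a7 and Sv2b that outnumbered those of Gad1 and Gad2. This gave 561 ET nuclei among 12605 excitatory nuclei, out of 27085 nuclei that were kept.

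The nuclei came from 4 libraries, 1 per group. The groups were sleep deprivation by gentle handling, local administration of an adeno-associated virus carrying SIK3 without exon 13 (AAV8-hSyn-FLAG-SIK3(Ex13del)), the same virus carrying wild-type SIK3 (AAV8-hSyn-FLAG-SIK3(WT)), and ad lib sleep without deprivation. Both vectors express FLAG-tagged SIK3 from the human synapsin promoter, which is active in neurons, and the series' design text calls the mutated form a gain of function. No group received a vector without SIK3, the labels do not say how many animals entered a library, and age and duration of sleep loss were not given in the sources used here. Differences between groups have no replicates behind them and cannot be tested. Every interval below is an exact 95% interval that covers counting error only, and a difference may belong to the library rather than to the condition.

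ET neurons are specified by the transcription factor FEZF2 acting with BCL11B (CTIP2), and send thick-tufted dendrites to layer 1. They differ from intratelencephalic neurons, which project within the hemispheres and include the CUX2-expressing upper layer cells, and from layer 6 corticothalamic neurons. SIK3 is a kinase that phosphorylates class IIa histone deacetylases and CRTC coactivators. A mutation that skips exon 13 of mouse Sik3 removes a protein kinase A site and increases sleep need.

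ET nuclei numbered 131 in the sleep deprivation library, 93 in the exon 13 deleted vector library, 156 in the wild-type vector library and 181 in the ad lib library. They made up 4.96% of excitatory nuclei after sleep deprivation (interval 4.17 to 5.86%), 3.58% with the exon 13 deleted vector (2.90 to 4.36%), 4.83% with the wild-type vector (4.12 to 5.63%) and 4.37% in ad lib sleep (3.77 to 5.04%). The intervals of neighbouring shares overlapped. The summed depth of ET nuclei was 3171689, 1707496, 2545187 and 2453548 UMIs in the same order of libraries. Their median depth was 23795 UMIs per nucleus after sleep deprivation, 17056 with the exon 13 deleted vector, 14866 with the wild-type vector and 12905 in ad lib sleep, against 11169, 9397, 8691 and 7512 UMIs in other excitatory nuclei. ET nuclei were thus the deeper population in each library, by 1.71 to 2.13 times. The rule itself favours deep nuclei, since it asks for UMIs of 5 of 9 genes. Excitatory nuclei just outside it, at 4 of 9 markers, had medians of 20702, 15255.5, 11819 and 10286 UMIs. Levels below are UMIs per 1000000 UMIs of the summed nuclei (CPM), not corrected for gene length. Between 9 and 16 barcodes were shared by each pair of libraries, and 0 of these were ET nuclei in both.

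The name was checked on 14 ET genes that the rule did not use. Bcl11b stood at 279 CPM in ET nuclei after sleep deprivation, 304 with the exon 13 deleted vector, 343 with the wild-type vector and 303 in ad lib sleep, against 104, 117, 101 and 93.5 CPM in other excitatory nuclei. Fezf2 was at 34.1, 36.3, 36.9 and 37.9 CPM in ET nuclei, against 12.8, 10.4, 11.6 and 11.1 CPM in the others. Both regulators were therefore higher in ET nuclei in 4 of 4 libraries. The same held for Pou3f1, a POU-domain transcription factor, for the LIM-domain binding protein Ldb2, and for Lratd2, Npr3, Vat1l, Parm1, Crym, Erg and Nefh. Ratios of ET nuclei to other excitatory nuclei spanned 5.39 to 8.06 for Parm1, 4.95 to 6.33 for the natriuretic peptide receptor gene Npr3 and 2.25 to 2.45 for Ldb2. Of the 10 genes that averaged 10 CPM or more, 9 were higher in ET nuclei in 4 of 4 libraries and 7 at least 2-fold, where 17.6% and 1.26% of 10271 genes were. Pcp4 was lower instead, at 112, 121, 141 and 136 CPM in ET nuclei against 189, 182, 142 and 155 CPM. Chrna6 and Spp1 lay between 0 and 1.22 CPM in ET nuclei and gave no information.

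Summed levels of markers of other cells were lower in ET nuclei, though not those of every member. The summed level of 5 corticothalamic markers was 301, 307, 260 and 265 CPM, against 1279, 1233, 1166 and 1250 CPM in other excitatory nuclei. The 10 intratelencephalic layer markers summed to 532, 461, 414 and 436 CPM, against 869, 927, 984 and 959 CPM, with 1 of the 10 at 0 in each library. Astrocyte, oligodendrocyte, microglia and interneuron lists were at 270 to 427, 185 to 322, 138 to 172 and 210 to 230 CPM in ET nuclei, below their levels in other excitatory nuclei of the same library. The sums cover 8, 8, 7 and 10 genes, none of them at 0 in all 4 libraries. The 5 near-projecting markers summed to 80.7, 69.1, 71.5 and 43.2 CPM in ET nuclei, against 140, 102, 120 and 145 CPM. Of the 2 that averaged 10 CPM or more in either population, 1 was higher and 1 lower in ET nuclei in 4 of 4 libraries. At that level 1 of 8 intratelencephalic and 1 of 6 interneuron markers were also higher in 4 of 4 libraries.

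The sleep deprivation library needs a reservation before its results, because its nuclei just inside the threshold differed from those of the other libraries in markers outside the rule. At 5 of 9 rule markers Bcl11b was at 88.1 CPM after sleep deprivation (33 nuclei), against 237, 230 and 246 CPM with the exon 13 deleted vector, the wild-type vector and ad lib sleep (21, 26 and 44 nuclei). Cux2, the upper layer marker, was at 190 CPM in those sleep deprivation nuclei, against 101, 55.3 and 66.4 CPM. At 6 of 9 markers Cux2 was at 175 CPM after sleep deprivation and 111 CPM with the exon 13 deleted vector, against 6.17 and 10.3 CPM with the wild-type vector and in ad lib sleep. Bcl11b at 6 of 9 was at 209 CPM after sleep deprivation, against 324, 313 and 337 CPM in the other 3 libraries, so the exon 13 deleted vector library shared the higher Cux2 but not the lower Bcl11b. At 7 or more of 9 markers the 4 libraries lay closer together in these genes. Bcl11b was at 376, 324, 372 and 310 CPM and Cux2 at 8.62, 7.89, 14.4 and 8.85 CPM. Other class markers still differed there. The corticothalamic marker Hs3st4 was at 232 CPM after sleep deprivation, against 127, 127 and 99.5 CPM. The near-projecting marker Tshz2 was at 70.6 CPM, against 24.7, 41.5 and 10.3 CPM. Foxp2 (93.7, 93.7, 71.0 and 91.4 CPM) and Rorb (64.6, 63.1, 64.0 and 88.5 CPM) were not highest after sleep deprivation alone. Just outside the rule, at 4 of 9 markers, Bcl11b stood at 53.1, 98.5, 88.5 and 110 CPM and Cux2 at 234, 236, 207 and 193 CPM. Nuclei with 2 or more Cux2 UMIs made up 34 of the 131 ET nuclei after sleep deprivation (26.0%), 11 of 93 with the exon 13 deleted vector (11.8%), 9 of 156 with the wild-type vector (5.77%) and 8 of 181 in ad lib sleep (4.42%). These nuclei are called Cux2-positive below. Each contrast below was therefore also taken without them, a choice made after the data were seen.

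**Figure D1:**
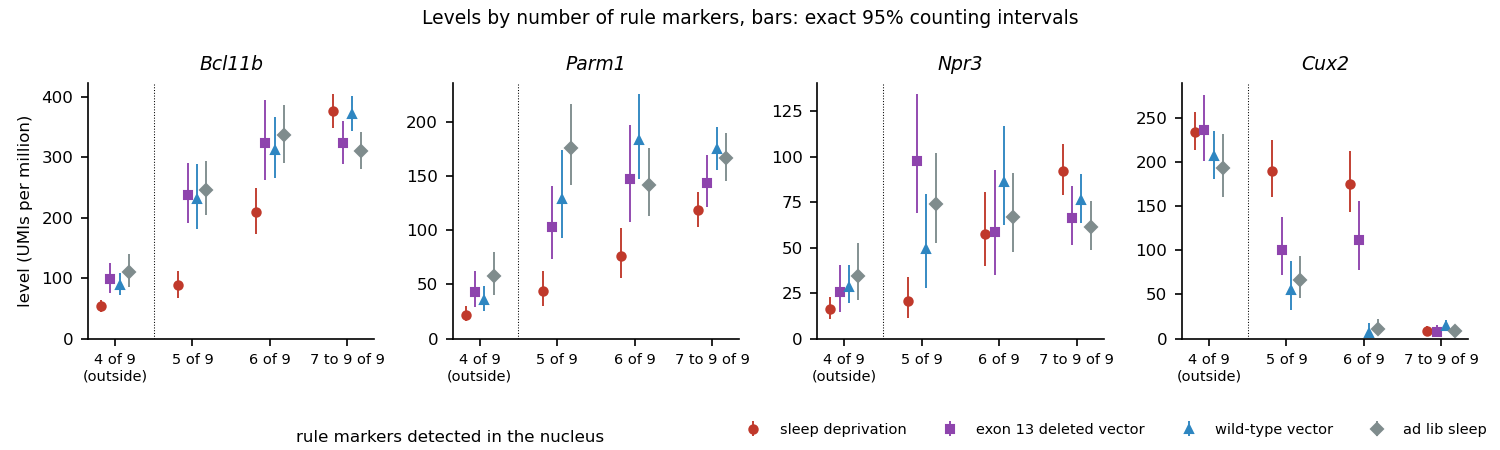
Levels of Bcl11b, Parm1, Npr3 and Cux2 (vertical axes, CPM) in nuclei grouped by how many of the 9 rule markers they held (horizontal axes), 1 point per library with exact 95% counting intervals, and a dotted line at the threshold of the rule. At 5 of 9 markers the sleep deprivation nuclei had 88.1 CPM of Bcl11b and 190 CPM of Cux2, while at 7 to 9 markers Cux2 lay between 7.89 and 14.4 CPM in all 4 libraries.

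What set ET nuclei apart was described within each library and not tested, since the nuclei were chosen by their own values. Among 3870 genes with at least 50 CPM in either population, 72 (1.86%) were at least 2-fold higher in ET nuclei in all 4 libraries and 57 (1.47%) at least 2-fold lower. Beyond the rule genes, the 15 with the most extreme least ratio were Gm6260, 8030451O07Rik, Gm44593, Parm1, Coro6, Npr3, Gm19410, Trmt9b, Gm44257, Rhbdl3, Vat1l, Slco2a1, A330093E20Rik, Cacna1h and Adamts2. Gm6260, a long noncoding RNA on chromosome 3 (143670892 to 143712210, minus strand, mm10), was at 46.7, 80.8, 72.7 and 81.1 CPM in ET nuclei against 4.06, 2.59, 4.47 and 3.69 CPM. Parm1, on chromosome 5 (91517615 to 91626894, plus strand), was at 93.6, 135, 171 and 163 CPM against 17.4, 20.05, 21.7 and 20.2 CPM. Coro6, a coronin of the actin cytoskeleton, ranged over 49.2 to 69.1 CPM in ET nuclei and 9.32 to 11.2 CPM in the others. The ranges of ET and other nuclei did not overlap for these 3 genes, which were named because their least ratio was among the highest. In excitatory nuclei with 4 or more UMIs of Deptor and Il1rapl2, Gm6260, Parm1 and Coro6 reached at most 3.76, 23.7 and 12.4 CPM.

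Ion channel genes went both ways. Pex5l, which encodes the channel trafficking subunit TRIP8b, was at 2130, 2131, 2450 and 2632 CPM in ET nuclei, against 873, 751, 775 and 718 CPM in other excitatory nuclei. It was at least 2.44-fold higher in each of the 4 libraries. Kcnn2, a calcium-activated potassium channel, was at 733 to 915 CPM against 211 to 226 CPM, Kcng1, a modifier subunit, at 19.2 to 31.8 against 5.27 to 8.41 CPM, and the T-type calcium channel gene Cacna1h at 42.9 to 58.0 against 10.1 to 11.4 CPM. The potassium channels Kcnk2, Kcna4, Kcnc1 and Kcnc2 went the other way, with Kcnk2 (TREK-1, a leak channel) at 12.9 to 16.7 CPM in ET nuclei against 108 to 117 CPM. Over the 28 potassium channel genes at 10 CPM, 6 were higher and 14 lower in 4 of 4 libraries, where 17.6% and 40.6% of all genes were. Of 20 sodium and calcium channel genes 7 were higher and 10 lower. In the list of HCN channels and Pex5l, 3 of 3 genes at 10 CPM were higher.

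Among axon guidance genes more were higher than lower. The Slit receptor Robo1 was at 1375, 1496, 1722 and 1850 CPM in ET nuclei against 469, 474, 498 and 485 CPM, the ephrin receptor Epha6 at 846 to 1096 against 410 to 503 CPM, and the netrin-G gene Ntng1 at 303 to 385 against 90.9 to 103 CPM. The netrin receptor gene Dcc was lower, at 252, 255, 165 and 147 CPM against 853, 870, 845 and 832 CPM. Of 30 guidance genes, 15 were higher and 10 lower in 4 of 4 libraries, where 17.6% and 40.6% of all genes were. Among receptors for modulators, the adrenergic Adra1a (76.3 to 99.0 against 25.1 to 28.0 CPM) and the serotonergic Htr4 (36.5 to 54.9 against 8.42 to 9.74 CPM) were at least 3.04-fold and 3.95-fold higher in ET nuclei. The muscarinic Chrm2 (13.4 to 24.6 against 52.2 to 65.1 CPM) and histaminergic Hrh1 (1.57 to 3.47 against 14.1 to 20.1 CPM) were lower. The kainate receptor gene Grik2 was at 1057, 1199, 1521 and 1721 CPM against 594, 671, 637 and 588 CPM, while Gria4 and Grik1 were lower. The synaptic vesicle genes Rab3c and Sv2c were at least 2.65-fold and 2.19-fold higher, although 21 of the 26 release genes at 10 CPM were lower in 4 of 4 libraries, where 40.6% of all genes were.

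**Figure D2:**
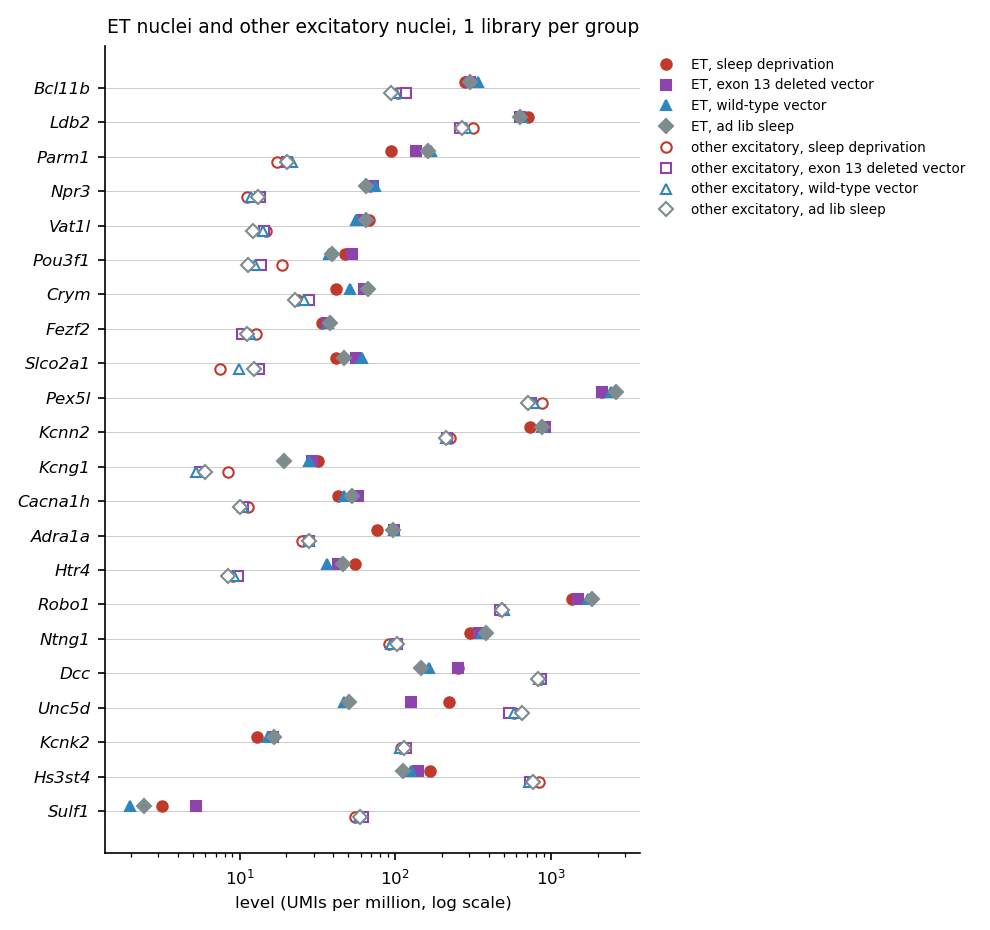
Levels (horizontal axis, CPM, log scale) of ET markers, channels, receptors and guidance genes in ET nuclei (filled) and other excitatory nuclei (open), 1 point per library and population. Filled points lie right of open ones for Bcl11b through Ntng1 and left of them for Dcc, Unc5d, Kcnk2, Hs3st4 and Sulf1, with Pex5l at 2130 to 2632 CPM against 718 to 873 CPM.

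In the mouse, ET neurons that reach the medulla are marked by Slco2a1 and those that reach the thalamus by Npsr1 and Hpgd. Slco2a1, a prostaglandin transporter gene, was at 41.9, 55.6, 60.9 and 46.9 CPM in ET nuclei, against 7.49, 13.3, 9.97 and 12.3 CPM in other excitatory nuclei. At least 1 Slco2a1 UMI was found in 48 of 131 nuclei after sleep deprivation (36.6%, 28.4 to 45.5%), 40 of 93 with the exon 13 deleted vector (43.0%, 32.8 to 53.7%), 63 of 156 with the wild-type vector (40.4%, 32.6 to 48.5%) and 62 of 181 in ad lib sleep (34.3%, 27.4 to 41.7%). Thinned to 5000 UMIs per nucleus the shares were 11.5%, 28.3%, 20.5% and 19.3%. Npsr1 or Hpgd was found in 16, 7, 16 and 24 nuclei, and both kinds of marker in 5, 2, 6 and 8. Hpgd was not above its level in other excitatory nuclei in any library, so only Npsr1 (19.9, 2.34, 10.6 and 15.9 CPM, against 5.67, 4.87, 5.0 and 6.24 CPM) could mark the second subtype, on 63, 4, 27 and 39 UMIs.

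The vector transcript was read from its 3′ feature WPRE_pA, which was found in both vector libraries and in neither of the others. It does not tell the mutated form from the wild-type form, or sleep deprivation from ad lib sleep. ET nuclei held 68 UMIs with the exon 13 deleted vector (39.8 CPM, 30.9 to 50.5) and 42 UMIs with the wild-type vector (16.5 CPM, 11.9 to 22.3), and 0 UMIs after sleep deprivation and in ad lib sleep, where a count of 0 allows up to 0.946 and 1.22 CPM. The exon 13 deleted level was 2.41-fold that of the wild-type vector (1.62 to 3.63) in ET nuclei and 1.13-fold (1.06 to 1.20) in other excitatory nuclei. In ET nuclei 1 nucleus held 17 of the 68 UMIs with the exon 13 deleted vector and 6 of the 42 UMIs with the wild-type vector, so the ET ratio rests on few nuclei. Against other excitatory nuclei of the same library, ET nuclei had 0.569 times the vector level with the exon 13 deleted vector (0.440 to 0.724) and 0.266 times with the wild-type vector (0.191 to 0.360). Few nuclei carried much of it: 3 of 93 and 2 of 156 ET nuclei held 3 or more UMIs. These were 3.23% and 1.28%, against 3.51% and 3.97% of other excitatory nuclei, where 1 nucleus held up to 119 and 115 UMIs. At least 1 UMI was seen in 28 nuclei of each set, 30.1% and 17.9%, against 25.0% and 21.6% of other excitatory nuclei. Outside the excitatory gate, where glia and interneurons are found, the shares were 21.0% and 17.7% at median depths of 2881 and 2809 UMIs. Single UMIs in ET nuclei cannot be told apart from free RNA, and which ET nuclei received the vector was not resolved. Nuclear Sik3 RNA was at 233 CPM after sleep deprivation, 275 with the exon 13 deleted vector, 243 with the wild-type vector and 228 in ad lib sleep. Sik2, its paralog, was at 148, 125, 156 and 95.8 CPM and Sik1 at 2.52 to 5.86 CPM.

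Sleep deprivation was set against ad lib sleep to ask what sleep loss does in these cells. In ET nuclei Fgf1 was 3.21-fold the ad lib level. Of genes averaging 10 CPM or more, 19 of 20 neurofilament and axon cytoskeleton genes and 15 of 16 cytosolic heat shock genes were higher after sleep deprivation, 3 of each at least 1.5-fold, and 12 of 13 cholesterol genes were lower, 3 of them at least 1.5-fold. Over all 9500 genes of that level 51.3% were higher, 48.7% lower, 5.2% at least 1.5-fold higher and 5.11% at least 1.5-fold lower. Of 6793 genes averaging 20 CPM or more with 100 UMIs or more, 297 (4.37%) were at least 1.5-fold higher after sleep deprivation and 250 (3.68%) at least 1.5-fold lower. Without nuclei holding 2 or more Cux2 UMIs these were 224 and 209.

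Fgf1, a fibroblast growth factor gene on chromosome 18, was at 229 CPM after sleep deprivation against 71.3 CPM in ad lib sleep, 3.21-fold (2.72 to 3.81), and 3.44-fold without the Cux2-positive nuclei. The long noncoding RNA 9630014M24Rik lies on the opposite strand of the same chromosome, ending 38789045 where Fgf1 spans 38838673 to 38929472. It was at 98.4 against 28.1 CPM, 3.50-fold (2.69 to 4.61). In other excitatory nuclei the pair was 2.85-fold and 2.70-fold higher. Ankrd6, which encodes a Wnt pathway protein, was at 35.6 against 6.93 CPM (5.14-fold, 3.07 to 9.14), and at 3.40-fold without the Cux2-positive nuclei. The sorting receptor gene Sorcs3 was 3.28-fold higher and Col25a1 4.37-fold, values that dropped to 1.91 and 1.82 without them.

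For 4 of the other 5 genes that led the ranking the value without those nuclei was at most 1.49-fold. Prkg1, a cGMP-dependent kinase gene, was at 258 against 54.6 CPM (4.73-fold) with all ET nuclei and 1.32-fold without the Cux2-positive ones. Unc5d was 4.39-fold and 1.05-fold, Camk2d 4.68-fold and 0.862-fold, and Col19a1 3.45-fold and 1.49-fold. The fifth was Cux2, whose value without nuclei chosen by Cux2 is fixed by that choice. It was 3.82-fold, and 0.974-fold at 7 or more of 9 rule markers. These 5 genes are higher in other excitatory nuclei than in ET nuclei, with Prkg1 at 674 and 594 CPM there after sleep deprivation and in ad lib sleep.

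Among the 10 that led in the other direction, the ratio stayed at or below 0.501 without the Cux2-positive nuclei. Rad51ap2 was at 20.8 CPM after sleep deprivation against 64.8 CPM in ad lib sleep (0.321-fold, 0.237 to 0.430) and 0.358-fold in other excitatory nuclei. Hibch, an enzyme gene of valine breakdown, had 33.1 against 93.3 CPM (0.355-fold), and 0.599-fold in the others. Adgrg6, an adhesion receptor gene, was at 15.4 against 45.2 CPM (0.341-fold), and Etv1, an ETS transcription factor gene, at 49.5 against 116 CPM (0.426-fold). Slc26a4, Gm28750, Skap1, A230051N06Rik, Mctp2 and Macrod2os1 were at 0.280 to 0.465-fold.

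**Figure D3:**
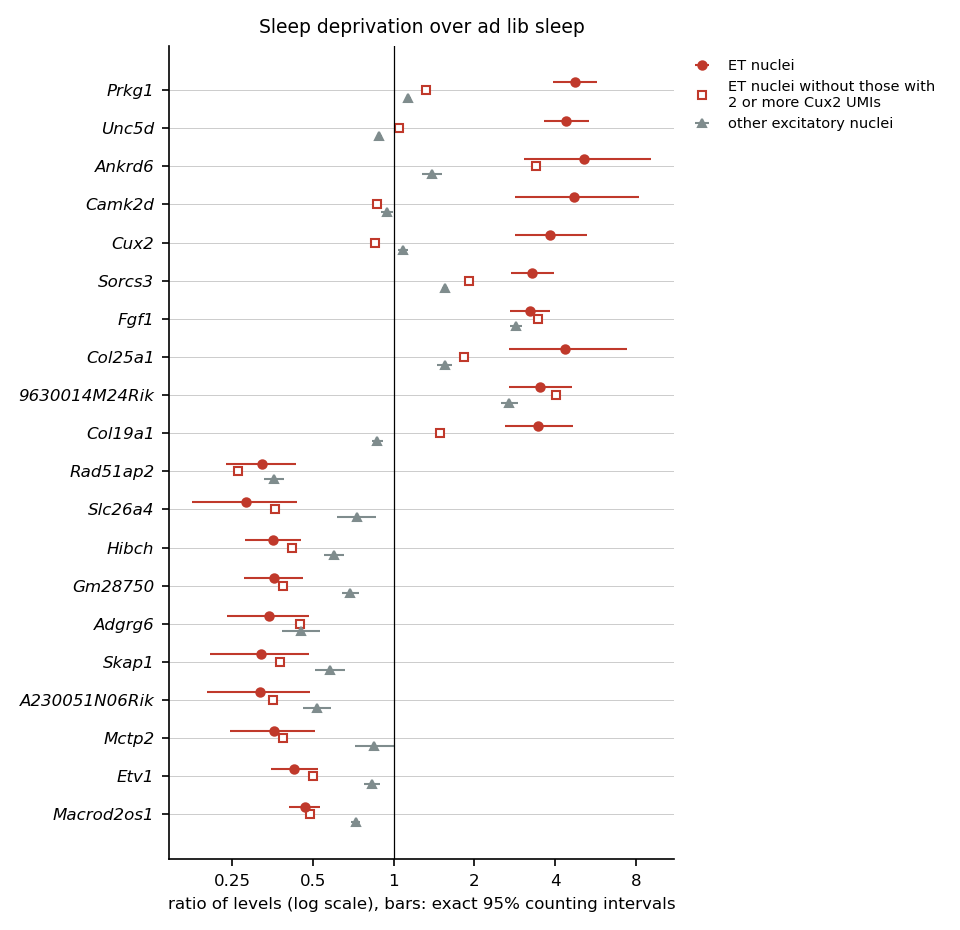
Ratio of the level after sleep deprivation to that in ad lib sleep (horizontal axis, log scale) for the 10 genes highest and 10 lowest by their interval, in ET nuclei (circles), ET nuclei without those with 2 or more Cux2 UMIs (squares) and other excitatory nuclei (triangles), with exact 95% counting intervals on circles and triangles. Fgf1 and 9630014M24Rik lie between 2.70 and 4.04 in all 3, whereas Prkg1, Unc5d and Camk2d lie at 0.862 to 1.32 in the squares. The square of Cux2 is fixed by the choice of nuclei.

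Gene groups were summarised by the median log2 ratio (with 1 CPM added) of members averaging 10 CPM or more. Over all such genes it was 0.01. Of 20 neurofilament and axon cytoskeleton genes, 19 were higher, with a median of 0.19 (0.25 without the Cux2-positive nuclei, 0.21 in other excitatory nuclei). The light neurofilament gene Nefl was at 128 CPM after sleep deprivation against 55.8 CPM in ad lib sleep (2.29-fold, 1.88 to 2.80), Nefm at 119 against 75.4 CPM (1.58-fold, 1.33 to 1.90) and Nefh at 24.3 against 7.74 CPM (3.14-fold, 1.88 to 5.49). All 3 neurofilament subunits were past 1.5-fold, while Map1b and Stmn2 were at 1.17-fold and 1.20-fold.

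Of 20 cytosolic heat shock genes 16 reached 10 CPM, and 15 of these were higher, with a median of 0.24 (0.21 without the Cux2-positive nuclei, 0.24 in other excitatory nuclei). Hsp90ab1, a constitutive HSP90 chaperone gene, stood at 282 against 180 CPM (1.57-fold, 1.40 to 1.76), Hsph1, an HSP110 nucleotide exchange factor gene, at 50.1 against 28.5 CPM (1.76-fold, 1.32 to 2.36) and the HSP40 gene Dnaja1 at 106 against 70.1 CPM (1.52-fold, 1.26 to 1.83). Hspa8 and Hsp90aa1 were at 1.39-fold and 1.30-fold. Promoter windows of 250 bases before to 50 after each gene's start, from RefSeq (GRCm38.p6), were searched for a strict heat shock element, 3 units that alternate between GAA and TTC with 2 free bases between units, in either phase. Each phase reads as the other on the opposite strand. This element was found in 4 of the 15 heat shock genes with a window (Chordc1, Hspd1, Hspe1 and Hsph1), and in 0.662% of 27025 genes. The Hsph1 window is shown because Hsph1 was the heat shock gene farthest past 1.5-fold. It lies at chr5:149636266-149636565 on the minus strand, and the element, in capitals, starts 15 bases after the gene's start. Chordc1, Hspd1 and Hspe1 were at 1.04, 1.09 and 1.14-fold in ET nuclei.
Hsph1: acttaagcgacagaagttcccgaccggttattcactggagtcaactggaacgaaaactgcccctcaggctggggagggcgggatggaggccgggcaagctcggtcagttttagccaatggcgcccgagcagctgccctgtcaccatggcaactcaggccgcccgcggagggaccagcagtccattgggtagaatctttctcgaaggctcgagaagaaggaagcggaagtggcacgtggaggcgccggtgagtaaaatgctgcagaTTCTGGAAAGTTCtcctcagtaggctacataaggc

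Activity-regulated genes were mixed in both the rapid and the delayed class. Of 20 rapid immediate early genes 12 reached 10 CPM and 6 of these were higher, with a median of 0.05, and -0.18 without the Cux2-positive nuclei. Arc, a synaptic plasticity gene, was at 30.3 CPM after sleep deprivation against 8.56 CPM in ad lib sleep (3.54-fold, 2.19 to 5.97, and 2.44-fold without those nuclei). Egr3 was at 25.2 against 11.8 CPM (2.13-fold, 1.38 to 3.39), Npas4 at 7.88 against 18.3 CPM (0.430-fold, 0.253 to 0.716) and Nr4a1 at 92.1 against 101 CPM. Of 20 delayed genes 16 reached 10 CPM and 11 of these were higher, with a median of 0.39 (0.35 without the Cux2-positive nuclei, 0.20 at 7 or more of 9 rule markers), against 0.04 in other excitatory nuclei, and 6 were at least 1.5-fold higher and 1 at least 1.5-fold lower. The neurotrophin gene Bdnf was at 42.2 against 17.1 CPM (2.47-fold, 1.73 to 3.58), but 25.4% of its UMIs after sleep deprivation came from 1 nucleus. The secretogranin gene Scg2 was at 36.9 against 20.8 CPM (1.77-fold, 1.27 to 2.52), the activin subunit gene Inhba at 30.3 against 14.7 CPM (2.06-fold, 1.39 to 3.12, and 1.46-fold without the Cux2-positive nuclei) and Homer1 at 400 against 280 CPM (1.43-fold). In other excitatory nuclei Bdnf was at 1.20-fold, Inhba at 0.854-fold and Scg2 at 1.60-fold.

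Of 23 cholesterol genes 13 reached 10 CPM, and 1 of these was higher after sleep deprivation, and the median was -0.34 in both ET and other excitatory nuclei. Sqle, the squalene epoxidase gene, was at 8.83 against 17.9 CPM (0.492-fold, 0.295 to 0.809), the sterol sensor gene Insig1 at 6.31 against 12.2 CPM (0.516-fold), and Msmo1 at 19.2 against 30.2 CPM (0.638-fold). At 7 or more of 9 rule markers the median was -0.09, with 4 of 12 higher. Of 13 mitochondrially encoded transcripts 11 were higher, with a median of 0.48 and 0.37 in other excitatory nuclei. mt-Nd2 was at 194 against 107 CPM and mt-Cytb at 319 against 200 CPM. Mitochondrial UMIs, which come from outside the nucleus, made up 0.375% of ET UMIs against 0.306%, and their part in the other differences was not tested.

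Of 18 glucocorticoid-response genes 11 reached 10 CPM, with 7 of these higher and a median of 0.23. Fkbp5, a glucocorticoid receptor chaperone gene, had 60.9 against 28.5 CPM (2.13-fold, 1.61 to 2.85), and the Krüppel-like factor gene Klf9 at 107 against 62.0 CPM (1.73-fold). Among synaptic and channel genes, Shank1 (183 against 120 CPM), Cplx2 (89.9 against 35.5 CPM) and the potassium channel gene Kcna2 (72.2 against 42.4 CPM) were at least 1.52-fold higher. Shank1 was at 1.42-fold without the Cux2-positive nuclei. Kcnc2 was 2.61-fold higher with all ET nuclei but 0.615-fold without those nuclei. Grik2 was at 1057 against 1721 CPM (0.614-fold, 0.587 to 0.643; 0.701-fold without the Cux2-positive nuclei), while other excitatory nuclei were at 1.01-fold. Among the SIK pathway genes Sik2 was at 148 against 95.8 CPM (1.54-fold, 1.31 to 1.81; 1.26-fold in other excitatory nuclei) and Sik3 at 1.02-fold (0.913 to 1.14).

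**Figure D4:**
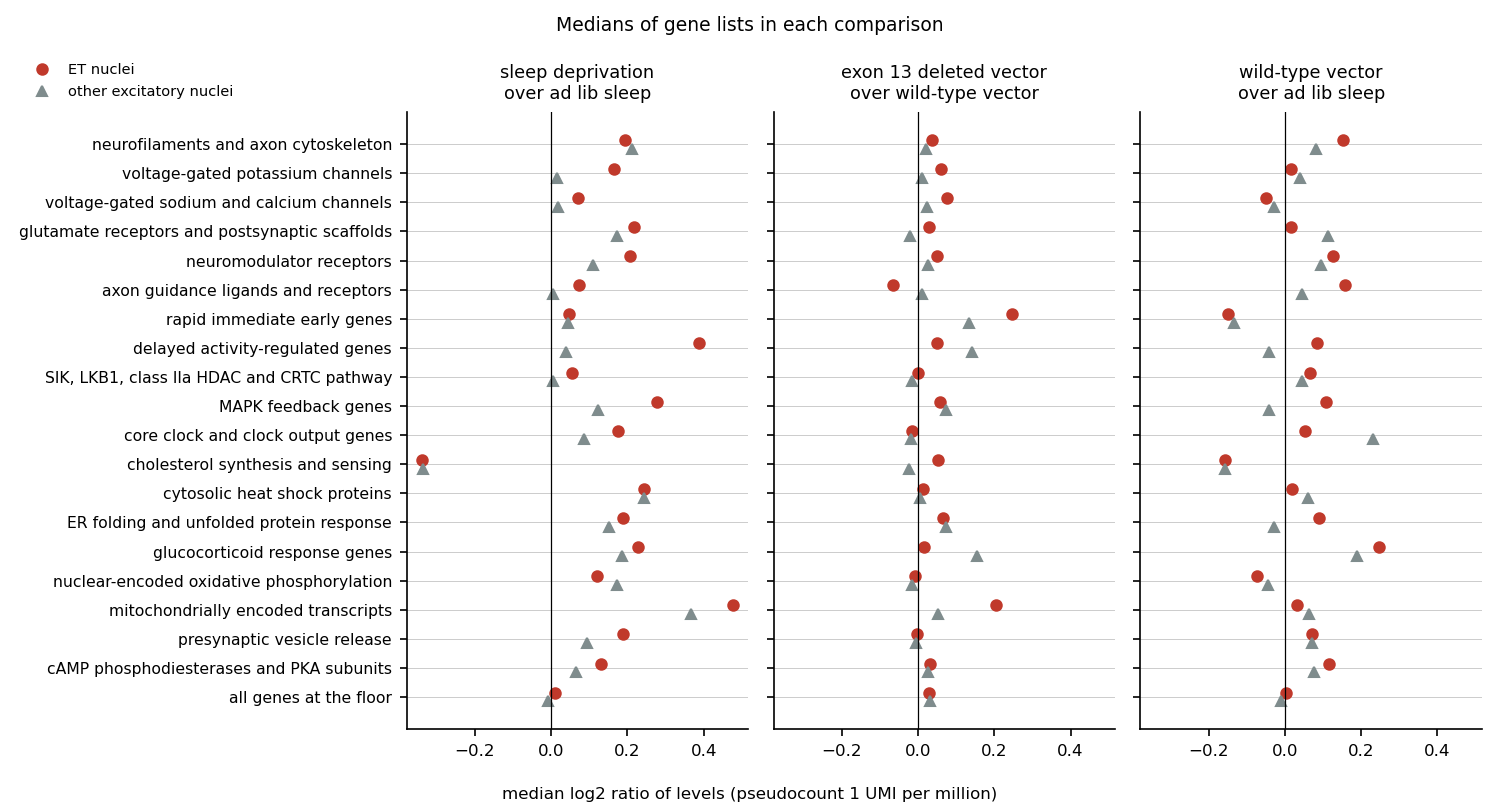
Median log2 ratio (horizontal axes, 1 CPM added) of each gene list in the 3 comparisons, for ET nuclei (circles) and other excitatory nuclei (triangles), with all genes at the bottom. After sleep deprivation cholesterol genes lie at -0.34 in both populations, mitochondrially encoded transcripts at 0.48 and 0.37 and delayed activity genes at 0.39 and 0.04.

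The exon 13 deleted vector was set against the wild-type vector, and a difference may lie with either library. Of the 10 genes that led in ET nuclei, the peptide gene Adcyap1, the growth factor gene Tgfb2, Gm19951 and AC149090.1 were also at least 1.94-fold higher in other excitatory nuclei. The vector itself was 2.41-fold higher in ET nuclei, as given above. Of 6154 genes, 125 (2.03%) were at least 1.5-fold higher with the exon 13 deleted vector and 64 (1.04%) at least 1.5-fold lower, and trimmed mean scaling turned this balance to 94 higher and 113 lower. Adcyap1, which encodes the neuropeptide PACAP on chromosome 17 (93199017 to 93206537, plus strand), was at 43.9 CPM with the exon 13 deleted vector against 13.8 CPM with the wild-type vector (3.19-fold, 2.11 to 4.92), with 12.9 CPM after sleep deprivation and 21.6 CPM in ad lib sleep. Of its UMIs 26.7% came from 1 nucleus. In other excitatory nuclei it was 3.04-fold higher (2.49 to 3.72). Tgfb2, a ligand of the transforming growth factor family, was at 52.7 against 21.2 CPM (2.48-fold, 1.75 to 3.55), with 2.47-fold in other excitatory nuclei and 25.6% of its UMIs from 1 nucleus. Gm19951, a long noncoding RNA, was at 72.6 against 29.9 CPM (2.43-fold) with no nucleus above 4.84% of its UMIs.

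The other 6 were at 0.780 to 1.34-fold in other excitatory nuclei. Adarb2, an interneuron gene, was at 56.8 against 13.4 CPM (4.25-fold) with 53.6% of its UMIs in 1 nucleus. Pcdh15, Gm15398 and Col19a1 (3.35, 3.41 and 2.80-fold) each had 25.2 to 27.6% in their top nucleus, as Adcyap1 and Tgfb2 did. Whether these genes share a top nucleus was not examined. Cux2 was 2.62-fold higher, and 0.547-fold at 7 or more of 9 rule markers. Unc5d was 2.70-fold, and 1.12-fold at 7 or more of 9 rule markers. AC149090.1, to which the annotation used here gives no place, was at 341 against 156 CPM (2.18-fold) and 1.94-fold in other excitatory nuclei. The genes that led in the other direction had ratios of 0.232 to 0.573. They included the NMDA receptor subunit gene Grin3a (21.1 against 48.3 CPM, 0.436-fold, 0.292 to 0.637), the semaphorin gene Sema3e (57.4 against 100.2 CPM, 0.573-fold, 0.449 to 0.726), the ATP-gated channel gene P2rx4 (18.7 against 39.3 CPM) and Adgrg6 (19.9 against 51.1 CPM, 0.390-fold). The other 6 were Gm48619, AC171003.1, Npas3, Ptprm, Vwc2l and Lrrc19. In other excitatory nuclei all 10 of these genes were between 0.859 and 1.40-fold. AC149090.1 was at 327 CPM with the exon 13 deleted vector at 6 of 9 rule markers. It was at 152 CPM with the wild-type vector and 360 CPM in ad lib sleep. The ad lib level was also nearer the exon 13 deleted level for Pcdh15, Grin3a, Npas3, Ptprm, Vwc2l, Sema3e and Lrrc19. It was nearer the wild-type level for Adarb2, Adcyap1, Gm19951, Tgfb2, Unc5d, Cux2, Col19a1, Gm48619, AC171003.1, P2rx4 and Adgrg6. Gm15398 lay about midway.

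**Figure D5:**
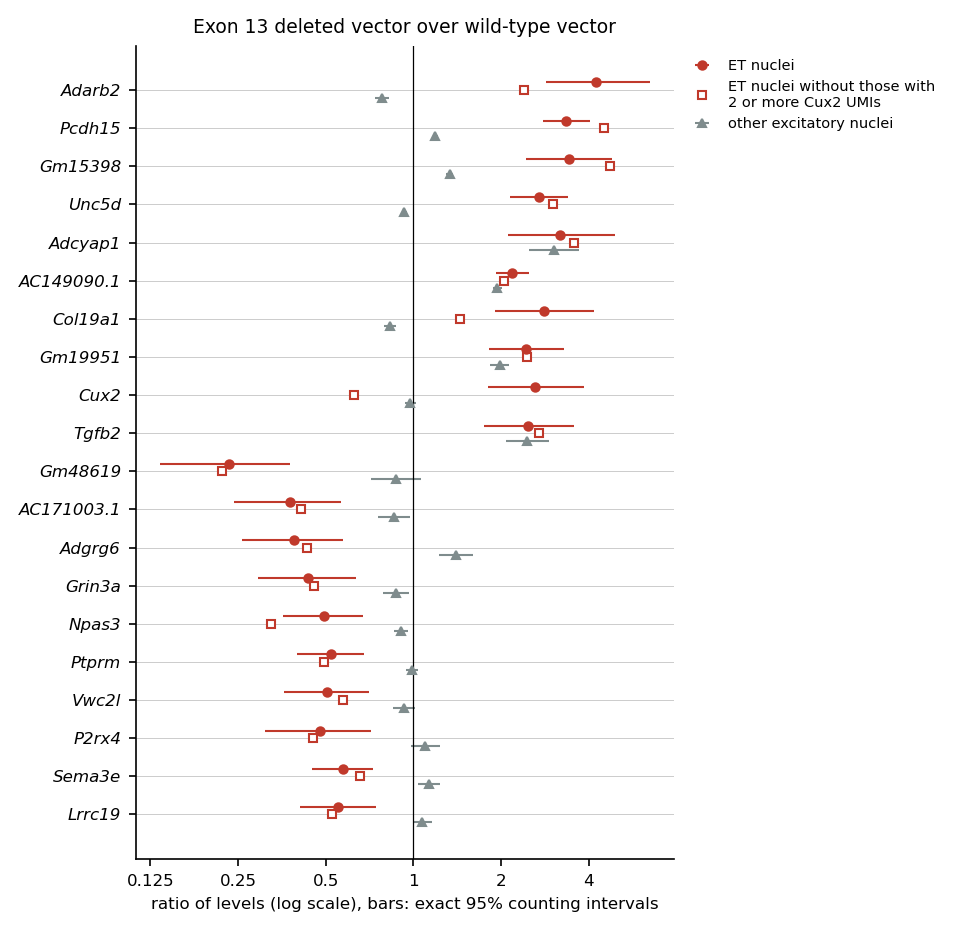
Ratio of the level with the exon 13 deleted vector to that with the wild-type vector (horizontal axis, log scale) for the 10 genes highest and 10 lowest by their interval, in ET nuclei (circles), ET nuclei without those with 2 or more Cux2 UMIs (squares) and other excitatory nuclei (triangles), with exact 95% counting intervals on circles and triangles. Adcyap1, Tgfb2, Gm19951 and AC149090.1 lie between 1.94 and 3.19 in ET nuclei and in other excitatory nuclei, and the 10 lowest genes lie at 0.232 to 0.573 in ET nuclei and 0.859 to 1.40 in other excitatory nuclei. The square of Cux2 is fixed by the choice of nuclei.

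Over the 9479 genes of at least 10 CPM the median log2 ratio was 0.03, with 54.6% higher, 45.4% lower, 4.45% at least 1.5-fold higher and 2.09% at least 1.5-fold lower. Of the 11 rapid immediate early genes that reached this level 8 were higher, with a median of 0.25 and 0.13 in other excitatory nuclei. With nuclei thinned to 5000 UMIs the median turned to -0.34, with 3 of 9 higher. Egr1, a zinc finger factor gene, was at 38.7 against 22.4 CPM (1.73-fold, 1.19 to 2.5), Npas4 at 18.7 against 14.1 CPM (1.32-fold, 0.797 to 2.19) and Arc at 22.3 against 20.4 CPM. Of 14 delayed genes 10 were higher, with a median of 0.05. It turned to -0.16 at 7 or more of 9 rule markers, with 4 of 14 higher, and to -0.01 with trimmed mean scaling. Bdnf was at 42.2 against 25.9 CPM (1.63-fold, 1.15 to 2.31), Inhba at 33.4 against 17.7 CPM (1.89-fold, 1.25 to 2.86) and Scg2 at 33.4 against 22.4 CPM (1.49-fold, 1.01 to 2.19). Nptx2, a neuronal pentraxin gene, had 24 against 7 UMIs, 14.1 against 2.75 CPM. The Sprouty gene Spry2, a brake on growth factor signalling, was at 32.8 against 18.9 CPM (1.74-fold, 1.16 to 2.61). Among SIK pathway genes 9 of 18 were higher, with a median of 0.00, and Hdac4, a class IIa deacetylase gene, was at 112 against 92.3 CPM (1.21-fold, 0.996 to 1.47).

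The cyclic AMP response element was searched in the promoters of activity genes because CREB and the CRTC coactivators, which SIK kinases restrain, act through it. The full element TGACGTCA, which reads the same on both strands, was in 4 of 14 delayed activity genes with a window (Pcsk1, Plk2, Scg2 and Sst), in 2 of 16 rapid genes (Btg2 and Maff) and in 2.03% of 27025 genes. The shorter TGACG, or CGTCA on the other strand, part of which overlaps the full element, was in 10 of 14 delayed genes, 12 of 16 rapid genes and 23.0% of all genes. The 2 windows shown belong to Scg2, at 1.49-fold above, and Adcyap1, at 3.19-fold. Adcyap1 is in neither activity list, and its window holds only the short element. Requiring 6 of 9 rule markers, the ratio of exon 13 deleted to wild-type vector was 1.33 for Scg2 and 1.01 for Plk2. It was 0.841 for Pcsk1, 0.862 for Sst and 0.917 for Btg2, and Maff was at 0 against 0.451 CPM. Whether the element has a part in these ratios was not tested. The Scg2 window lies at chr1:79439977-79440276 on the minus strand, with the full element in capitals starting 68 bases before the gene's start. The first of 2 listed Adcyap1 windows lies at chr17:93198767-93199066 on the plus strand, with the short element in capitals starting 91 bases before that start.
Scg2: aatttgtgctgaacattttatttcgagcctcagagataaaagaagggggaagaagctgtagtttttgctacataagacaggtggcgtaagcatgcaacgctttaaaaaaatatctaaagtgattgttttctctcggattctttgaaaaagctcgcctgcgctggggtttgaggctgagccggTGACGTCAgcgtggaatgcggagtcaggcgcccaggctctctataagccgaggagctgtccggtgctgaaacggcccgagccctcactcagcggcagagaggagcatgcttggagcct
Adcyap1: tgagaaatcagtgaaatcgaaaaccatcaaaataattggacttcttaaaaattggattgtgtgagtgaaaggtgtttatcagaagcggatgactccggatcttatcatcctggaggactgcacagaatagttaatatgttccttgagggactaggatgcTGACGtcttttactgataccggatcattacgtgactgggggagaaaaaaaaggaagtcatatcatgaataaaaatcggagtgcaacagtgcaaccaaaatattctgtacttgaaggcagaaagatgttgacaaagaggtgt

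The wild-type vector was set against ad lib sleep, a comparison in which SIK3 expression cannot be told apart from injection and virus, and which shares the ad lib library with the sleep deprivation comparison. Of 6742 genes, 112 (1.66%) were at least 1.5-fold higher with the wild-type vector and 105 (1.56%) at least 1.5-fold lower. The highest were Ccdc7b, Tshz2, 1700016P03Rik, Vwc2l, Olfm3, Pappa2, 4930595D18Rik, Lgr5, Homer1 and Mthfs. Lgr5, a receptor that amplifies Wnt signalling, was at 55.0 CPM with the wild-type vector against 27.3 CPM in ad lib sleep (2.01-fold, 1.5 to 2.74), with 3.64 and 3.36 CPM in other excitatory nuclei. Homer1, a postsynaptic scaffold gene, was at 454 against 280 CPM (1.62-fold, 1.47 to 1.79), and 1.39-fold in other excitatory nuclei. Tshz2 was 2.67-fold higher, with 33.6% of its UMIs from 1 nucleus.

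Among the lowest, St18 (2.75 against 42.8 CPM), Dock10 and Erbb4 are genes of oligodendrocytes or interneurons. In ad lib sleep the top nucleus for St18 held 31.4% of its UMIs, and the top nucleus for Erbb4 held 30.05%. Whether these are the same nucleus was not examined. The 8 oligodendrocyte markers summed to 185 CPM with the wild-type vector against 322 CPM in ad lib sleep in ET nuclei, and to 386 against 421 CPM in other excitatory nuclei. Their part in this result was not tested. Cadm1, a synaptic adhesion gene, was at 319 against 543 CPM (0.588-fold, 0.538 to 0.642), while other excitatory nuclei were at 1.06-fold, and no nucleus held more than 3.69% of its UMIs. AC149090.1, Rad51ap2, Gm11266, Trps1 and Pcdh15 were at 0.406 to 0.533-fold.

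Over the 9446 genes of at least 10 CPM the median log2 ratio was 0.00, with 50.4% higher, 49.6% lower, 2.53% at least 1.5-fold higher and 3.27% at least 1.5-fold lower. Of 18 clock genes at this level 10 were higher, with a median of 0.05. Among them Per1 was at 31.4 against 19.97 CPM (1.57-fold, 1.09 to 2.29) and Per2 at 34.2 against 17.5 CPM (1.95-fold, 1.34 to 2.88). Fkbp5 was at 46.8 against 28.5 CPM (1.64-fold, 1.21 to 2.23). Glucocorticoid-response genes had 9 of 11 members higher with a median of 0.25, and cholesterol genes 3 of 16 with a median of -0.16. Sik2 was at 156 against 95.8 CPM (1.63-fold, 1.38 to 1.92). Next to these, Fkbp5 was at 60.9 CPM and Sik2 at 148 CPM after sleep deprivation. Channel, receptor and vesicle genes past 1.5-fold in ET nuclei included Scn4b (26.7 against 13.4 CPM) and Kcna2 (65.2 against 42.4 CPM). The serotonin receptor gene Htr2c (29.1 against 13.4 CPM) and Sv2c (78.6 against 43.6 CPM) were also past it. In other excitatory nuclei these genes were at 0.954, 1.16, 1.15 and 0.963-fold. Of 16 neuromodulator receptor genes at 10 CPM or more 11 were higher, with a median of 0.13.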

How the data were processed

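Single-nucleus libraries were made with a 10x Chromium 3′ kit (v3.1), per the labels' protocols. For each barcode the authors deposited UMI counts of every gene, not normalized. The submitters' processing notes name Cell Ranger 6.1.2 and the mm10 build. Whether intronic reads were counted, and by strand, is not given in the sources used here, so a gene and its antisense partner may share reads. The deposited tables also hold text identifiers of genes and barcodes. Nuclei were selected by the rule in the opening. UMIs were summed over the ET nuclei of each library (1707496 to 3171689) and scaled to CPM. Gene coordinates came from GENCODE vM21 and promoters from RefSeq (GRCm38.p6). Analysis used Python 3.11.15, numpy 2.4.6, scipy 1.17.1, pandas 2.3.3 and scanpy 1.11.5.

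With 1 library per group no test was run. Levels carry exact Poisson intervals, shares exact Clopper-Pearson intervals and ratios exact conditional intervals, at 95%. UMIs of 1 nucleus are not independent of each other, so these intervals are too narrow for differences between animals. The floor of a count of 0 is 3 counts. Named genes were the SIK genes, the vector feature, the rule and marker genes, the 10 highest by lower bound and 10 lowest by upper bound of each ratio (mean of 20 CPM, 100 UMIs), list members of highest level or past 1.5-fold, and, against other excitatory nuclei, 15 highest and 10 lowest. The members, lists and rules were chosen with earlier results of these data known. Of 530 gene names written in 34 lists, 529 matched. Deptor Il1rapl2 nuclei (2109) had 4 or more UMIs of those genes, and corticothalamic-marker nuclei (2165) at least 3 of Foxp2, Syt6, Rprm and Hs3st4. Doublets were not removed. Scrublet's own threshold called 0 to 2 nuclei a library, so the share that loading predicts (0.8% per 1000.0 barcodes) was called as an alternative, 9, 6, 6 and 17 of the ET nuclei after sleep deprivation, with the exon 13 deleted vector, with the wild-type vector and in ad lib sleep. The ratio and interval code was tested on simulated data.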

Additional observations from a re-analysis of the deposited data

Results flagged for a closer look

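In 9 cases a gene that led a comparison was at least 1.5-fold apart one way in ET nuclei and at least 1.1-fold the other way in other excitatory nuclei. None of these differences between populations was tested, since each side is 1 library per group. After sleep deprivation Unc5d was 4.39-fold and Col19a1 3.45-fold the ad lib level in ET nuclei, against 0.884-fold and 0.869-fold in other excitatory nuclei. With the exon 13 deleted vector Adarb2 was 4.25-fold, Col19a1 2.80-fold, Adgrg6 0.390-fold and Sema3e 0.573-fold the wild-type vector level, against 0.780, 0.833, 1.40 and 1.13-fold in other excitatory nuclei. With the wild-type vector Tshz2 was 2.67-fold, Vwc2l 2.52-fold and Erbb4 0.317-fold the ad lib level, against 0.808, 0.779 and 1.15-fold. In the library where each gene was higher, its top ET nucleus held 53.6% of Adarb2, 33.6% of Tshz2, 30.05% of Erbb4 and 22.2% of Vwc2l UMIs. For Adgrg6 and Sema3e the top nucleus held 8.46% and 5.10%.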

How the results depend on the processing

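No paired analysis was possible because each group has 1 library and no test was run. Requiring 6 of 9 rule markers, the ET shares were 3.71%, 2.77%, 4.03% and 3.31% (sleep deprivation, exon 13 deleted vector, wild-type vector, ad lib sleep), and with 5 of 8 without Tafa1, added after seeing the data, they were 3.71%, 2.81%, 4.03% and 3.31%. With 7 of 9, also added then, they were 2.61%, 1.96%, 2.94% and 2.15%, and after thinning to 5000 UMIs 3.68%, 2.63%, 3.74% and 3.16%. A minimum of 2000 genes gave 6.09%, 5.66% and 5.15% after sleep deprivation, with the wild-type vector and in ad lib sleep, and leaving out nuclei with 2 or more Cux2 UMIs gave 3.67% after sleep deprivation.

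Genes past 1.5-fold followed the floor and the depth. In the order sleep deprivation over ad lib sleep, exon 13 deleted over wild-type vector, wild-type vector over ad lib sleep, a 50 CPM floor left 133, 37 and 20 higher and 86, 8 and 20 lower. No floor gave 4471, 3760 and 3653 higher and 4334, 3756 and 4359 lower, and thinning left 49, 11 and 35 higher and 44, 13 and 26 lower because fewer UMIs were tested. At 7 of 9 markers 137 and 56 genes were lower in the 2 comparisons with ad lib sleep, and 68 higher with the exon 13 deleted vector. In that comparison trimmed mean scaling gave 94 higher and 113 lower, which turns the balance, and equal weight per nucleus gave 97 lower. The cause was not tested. Of 780 list medians under alternatives, 92 changed sign, 61 of them with the exon 13 deleted vector. Among medians at least 0.1 from 0 whose interval left out 0, that of mitochondrially encoded transcripts with the exon 13 deleted vector turned to -0.52 thinned and -0.0763 with equal weight per nucleus. That of cholesterol genes with the wild-type vector turned to 0.0173 thinned.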
